A study of Danio rerio with 75 samples.

Results

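The subject is a set of 10 genes of skeletal muscle, read in skin, brain and liver of ageing zebrafish as a measure of the muscle RNA that each library holds. The members were chosen by name, and all 10 were found among the 32677 rows of the count table. They are the fast myosin heavy chains myhz1.1 and myhz1.2, the regulatory myosin light chain mylpfa, the fast troponin T tnnt3b, the skeletal alpha actin acta1b, the calsequestrin casq1b, the parvalbumin pvalb2, the muscle creatine kinases ckma and ckmb and the enolase eno3. RNA was sequenced from fish whose labels give the strain AB JxTu, where the study's methods name it TüAB and describe the fish as male. The groups of old fish were of 42 months, with Tg(wt1a:GFP) as the listed line, and of 36 months, with Tg(pu.1:GFP), and are called old together. Fish of 24 months had no listed transgene, fish of 12 months carried Tg(flk:mCherry), and fish of 6 months, the youngest, had no listed transgene. Each of these reporters marks a cell type with a fluorescent protein, and no treatment was listed for any group. Since the listed line is fixed within an age in these groups, line and age cannot be told apart. By these labels only the comparison of 24 with 6 months has no listed transgene on either side. But 2 libraries put in no group list Tg(wt1a:GFP) at 12 and at 6 months. Fish numbers of both recur in the groups under another entry, Tg(flk:mCherry) at 12 months and no listed transgene at 6 months. The absence of a transgene at 6 months thus rests on labels that conflict. Each group held 5 libraries, except liver of 12 and of 6 months with 4 each, which gave 25 libraries of skin, 25 of brain and 23 of liver. The brain RNA of 6 months was taken from pairs of fish (2 per library), and all other libraries in these groups came from single fish, so that in brain pooling and age cannot be told apart in any comparison with 6 months.

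Skeletal muscle contracts when myosin heavy chains pull on actin filaments. Calcium released from the sarcoplasmic reticulum, where calsequestrin holds it, moves the troponin complex and so opens the filament, and parvalbumin binds calcium in the cytoplasm and speeds relaxation in fast fibres. Creatine kinase restores ATP from phosphocreatine, and enolase is a step of glycolysis. Most of the trunk of a zebrafish is fast muscle, with a thin layer of slow muscle between it and the skin along the flank, while the brain has no skeletal muscle of its own but lies close to muscles of the jaw, the eye and the neck.

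The defining markers of each tissue were present in the libraries labelled with it. Summed over 16 skin epithelium genes, led by the keratin krt5, skin libraries held 27551 to 63728 CPM (the usual scaling of counts to library size, here with TMM factors), against 97.5 to 976 CPM in brain. The 18 brain markers summed to 13609 to 26288 CPM in brain, against 241 to 543 CPM in skin. The 15 liver markers summed to 5842 to 291243 CPM in liver, against at most 10109 CPM in skin and 5875 CPM in brain, and the lowest liver value belongs to replicate 1 of 24 months, which also stands apart in muscle genes. Depth was 29006611 to 44324353 counts per library in brain, 32925263 to 48935972 in skin and 31306947 to 58166358 in liver.

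Skin held far more RNA of the muscle genes than brain. The 10 genes together took 0.191% to 2.96% of all counts in skin (median 1.14%), against 0.00430% to 0.111% in brain (median 0.00717%). All 10 were called higher in skin than in brain over the 5 ages (edgeR quasi-likelihood test with Benjamini-Hochberg adjustment over all genes, 73 libraries), in a comparison in which 42.4% of all genes were called higher in skin. Given that share, the calls alone say little of these genes, and their size says more. Pvalb2 was 305-fold higher in skin, ckma 186-fold, ckmb 161-fold, mylpfa 150-fold and tnnt3b 134.7-fold. The smallest differences were those of acta1b with 9.42-fold (adjusted p = 6.48e-05) and myhz1.1 with 5.95-fold (adjusted p = 7.05e-08). Both include single high brain libraries. Acta1b had a brain median of 0.384 CPM with a highest value of 38.9 CPM, and myhz1.1 a median of 0.842 CPM with a highest value of 53.1 CPM. In these bulk libraries more muscle cells and more RNA per muscle cell cannot be told apart.

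Per gene length, the creatine kinases led in skin. The deposited RPKM values (reads scaled to gene length and to the reads of the library) averaged 2398 ± 1504 for ckma and 2306 ± 1358 for ckmb (SD, n = 25 skin libraries). Mylpfa followed at 1269.6 ± 1123 RPKM and tnnt3b at 559 ± 419 RPKM. Eno3, at 364 ± 163 RPKM, and pvalb2, at 347 ± 406 RPKM, did not differ beyond their spread. Casq1b averaged 38.4 ± 22.9 RPKM and acta1b 14.8 ± 16.0 RPKM. The myosin heavy chains were the lowest, with 5.20 ± 4.71 RPKM for myhz1.2 and 2.41 ± 2.27 RPKM for myhz1.1. Of the summed RPKM of the 10 genes in skin, ckma and ckmb made up a median of 32.9% and 31.7%, while myhz1.2 and myhz1.1 made up 0.0598% and 0.0294%. Each of these pairs consists of close copies, and how reads that match several copies were divided is not given in the sources used here. The ranks and shares of these genes, above all the low ones of the myosin heavy chains, are therefore uncertain.

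In brain the levels were lower and their order differed in part. The highest mean was that of ckmb with 23.7 ± 42.7 RPKM, followed by ckma with 20.9 ± 34.8 RPKM and eno3 with 17.9 ± 10.3 RPKM (SD, n = 25 brain libraries). An SD above the mean was shared by all members but eno3 and pvalb2, as a few libraries stood far above the others. The highest brain library exceeded the lowest by 274-fold for acta1b, 187-fold for myhz1.1 and 170-fold for ckmb, but by 5.47-fold for eno3. In skin this span was 39.4-fold for myhz1.1, 21.7-fold for ckmb and 6.80-fold for eno3.

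The paired myosin genes stood in a different proportion in the tissues. In skin, the RPKM of myhz1.1 was 0.346 to 0.687 times that of myhz1.2, with a median ratio of 0.455. In brain the ratio was 1.197 to 7.98, with a median of 2.73, so that myhz1.2 led in 25 of 25 skin libraries and myhz1.1 in 25 of 25 brain libraries. The creatine kinases showed no such shift, with a median ratio of ckma to ckmb of 1.05 in skin and 0.930 in brain. The genes of each pair are close copies, and how reads that match several copies were divided is not given in the sources used here. The values of each single copy are therefore uncertain. In brain the ratio of the myosin genes also rests on few reads, with a median of 28 counts per library for myhz1.1 and 13 for myhz1.2.

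In liver, eno3 was the exception among the 10 genes. It averaged 364 ± 163 RPKM in skin (SD, n = 25), against 666 ± 227 RPKM in liver (SD, n = 23), and was 4.15-fold lower in skin in the joint fit (edgeR, adjusted p = 5.47e-15), where 36.9% of all genes were called lower in skin than in liver. The 2 scales differ, since RPKM were scaled to total reads and the fit to TMM sizes, and both put skin lower. Eno3 made up a median of 98.7% of the summed RPKM of the 10 genes in liver, so the summed level is also given without it. The other 9 genes were called higher in skin than in liver, as 36.6% of all genes were, with differences of 3.05-fold for acta1b (adjusted p = 0.0408) to 299-fold for pvalb2. The difference of acta1b includes 1 liver library of 24 months with 1306 CPM, against a liver median of 0.393 CPM. The joint fit was not repeated without that library. The summed level of these 9 genes, without eno3, had a median of 10624 CPM in skin, 42.3 CPM in brain and 14.5 CPM in liver, with CPM scaled within each tissue. Myhz1.1 and myhz1.2 had at most 13 and 19 counts in any liver library and did not pass the filter on low counts there, while all 10 genes passed in skin and in brain and 8 passed in liver. Both entered the joint fit through the other tissues. Their calls as higher in skin than in liver therefore say nothing further.

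**Figure D1:**
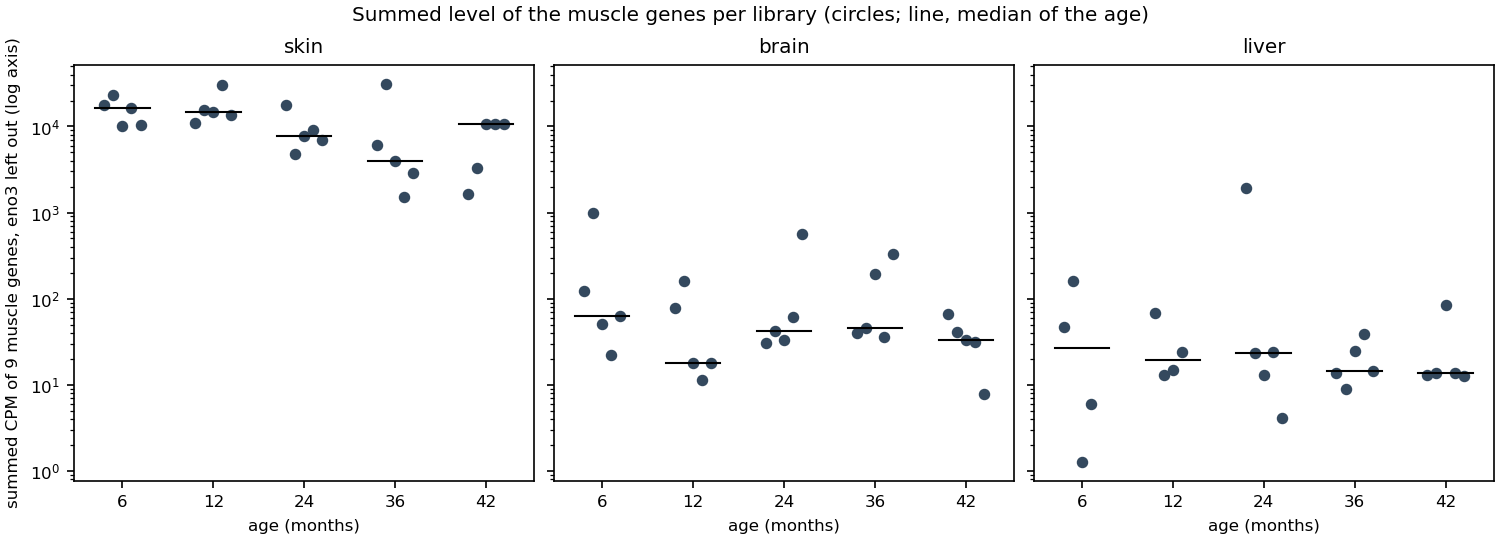
Summed level of 9 muscle genes, eno3 left out, in each library (CPM on a log axis) against age in months, with the median of each age as a line, in skin, brain and liver. Skin lies between 1521 and 31012 CPM and brain between 7.83 and 992 CPM, while 1 liver library of 24 months reaches 1903 CPM.

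Within skin the genes rose and fell together from library to library. Over the 25 skin libraries, each gene's log2 level correlated with the summed level of the other 9 genes at a Pearson r of 0.975 for ckma, 0.970 for tnnt3b, 0.964 for ckmb, 0.924 for myhz1.2, 0.920 for myhz1.1, 0.886 for mylpfa, 0.884 for eno3, 0.882 for pvalb2 and 0.874 for casq1b. Acta1b stood apart at 0.355. The r of ckma with ckmb was 0.991, and that of myhz1.1 with myhz1.2 was 0.986, which also holds what reads shared between copies would give. These r are a description over 25 libraries of all 5 ages that share 1 normalisation. In brain the same measure was 0.970 for tnnt3b, 0.939 for casq1b and for mylpfa, 0.928 for ckma, 0.911 for ckmb and 0.869 for acta1b, but 0.664 for eno3 and 0.628 for pvalb2. In liver it lay between -0.53, the value of eno3 itself, and 0.02, and for the other genes eno3 makes up most of the sum. Pairs of genes without eno3 ranged in liver from an r of -0.187 for myhz1.1 with acta1b to 0.985 for mylpfa with tnnt3b.

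Genes outside the set followed it closely. In skin, those most like the summed level of the 10 genes were atp2a1l (r = 0.985, n = 25 libraries), a calcium pump of the sarcoplasmic reticulum, actn3b (r = 0.981), an alpha actinin of the Z disc, and stac3 (r = 0.980), which couples excitation to calcium release. They were followed by pvalb4 (r = 0.979), a further parvalbumin, pygma (r = 0.975), the muscle glycogen phosphorylase, eef2l2 (r = 0.970), related to an elongation factor of translation, myoz1a (r = 0.970), a Z disc protein, and SLC41A3 (r = 0.969), of a family of magnesium transporters. In brain the leading genes were pygma (r = 0.972), ttna (r = 0.953), a titin, myl1 (r = 0.951), a myosin light chain, and pkmb (r = 0.945), a pyruvate kinase. They were followed by actc1b (r = 0.945), an actin of muscle, srl (r = 0.944), of the sarcoplasmic reticulum, atp2a1l (r = 0.936) and a gene listed as CKMT2 (1 of 2) (r = 0.932), a mitochondrial creatine kinase. Of the 50 genes most like the set, 24 in skin and 29 in brain were in a list of muscle genes, whereas such genes were 114 of the 16222 ranked in skin and 83 of the 17414 ranked in brain.

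Old skin had lower median levels of the muscle genes, acta1b excepted, than skin of 6 months, with a wide overlap. The summed level of the 10 genes was 1887 to 32260.3 CPM in old skin with a median of 5703 CPM (n = 10), against 11336 to 25385 CPM with a median of 17758 CPM at 6 months (n = 5). By age the medians were 17758 CPM at 6 months, 15871 CPM at 12 months, 8409 CPM at 24 months, 4522 CPM at 36 months and 11438 CPM at 42 months. All 10 genes had a fold change below 0 on the log2 scale, with a median of -1.12 beside a median over all tested genes of 0.01. Of the 10 genes, 2 fell, eno3 and casq1b, in a comparison in which 7.32% of 22429 genes were called lower, and none was called higher.

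Eno3, of glycolysis, had in old skin 729, 1248, 604, 366 and 484 CPM at 36 months and 317, 416, 846, 653 and 667 CPM at 42 months, against 1098, 2157, 1146, 1229 and 1064 CPM at 6 months. At 42 months all libraries lay below those of 6 months, while 1 library of 36 months lay among them. Its log2 fold change was -1.09 ± 0.25 (SE, adjusted p = 0.00662 in edgeR). Eno3 had a higher mean in liver (666 RPKM) than in skin (364 RPKM). Its level, here and at other ages, therefore need not read muscle RNA alone, though in skin it followed the other genes at an r of 0.884. Casq1b, which stores calcium, had in old skin 23.9, 66.3, 21.7, 8.72 and 14.1 CPM at 36 months and 22.3, 40.7, 106.01, 52.4 and 57.5 CPM at 42 months, against 87.7, 154, 46.0, 136.1 and 79.1 CPM at 6 months. The groups overlapped, with the lowest values at 36 months. Its log2 fold change was -1.38 ± 0.38 (SE, adjusted p = 0.018), and the call was lost without 6 months replicate 2 (adjusted p = 0.0571), without 6 months replicate 4 (adjusted p = 0.0546) and in a fit of 6, 36 and 42 months alone (adjusted p = 0.0517).

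The creatine kinases did not pass. Ckmb had in old skin 1605, 8129.8, 1441, 463 and 989 CPM at 36 months and 552, 1304, 3935, 3506 and 4922 CPM at 42 months, against 5889.7, 8723, 3972, 6890.2 and 4411 CPM at 6 months. A single library of 36 months and 1 of 42 months reached the levels of 6 months. The log2 fold change was -1.16 ± 0.50 for ckmb (adjusted p = 0.117) and -1.04 ± 0.50 for ckma (adjusted p = 0.163). Ckma had 442 to 7962 CPM with a median of 1444 CPM in old skin, against 3541 to 8549.9 CPM with a median of 4680.0 CPM at 6 months.

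The other genes did not pass either. Myhz1.2 had in old skin 11.8, 87.8, 5.07, 4.74 and 7.66 CPM at 36 months and 3.74, 4.41, 16.4, 40.5 and 13.8 CPM at 42 months, against 80.5, 45.2, 25.1, 86.4 and 27.6 CPM at 6 months. One library of 36 months was thus the highest of all 15, and the other 4 of that age were below all those of 6 months. Its log2 fold change was -1.46 ± 0.65 (adjusted p = 0.131), that of myhz1.1 -1.38 ± 0.62 (adjusted p = 0.135), that of tnnt3b -0.61 ± 0.57 (adjusted p = 0.503) and that of mylpfa -0.54 ± 0.60 (adjusted p = 0.582). Pvalb2, with 14.2 to 1533 CPM in old skin against 227 to 2005 CPM at 6 months, had a log2 fold change of -1.29 ± 0.82 (adjusted p = 0.3), and acta1b, with 2.08 to 75.0 CPM in old skin against 3.23 to 89.5 CPM at 6 months, one of -0.15 ± 0.83 (adjusted p = 0.921).

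**Figure D2:**
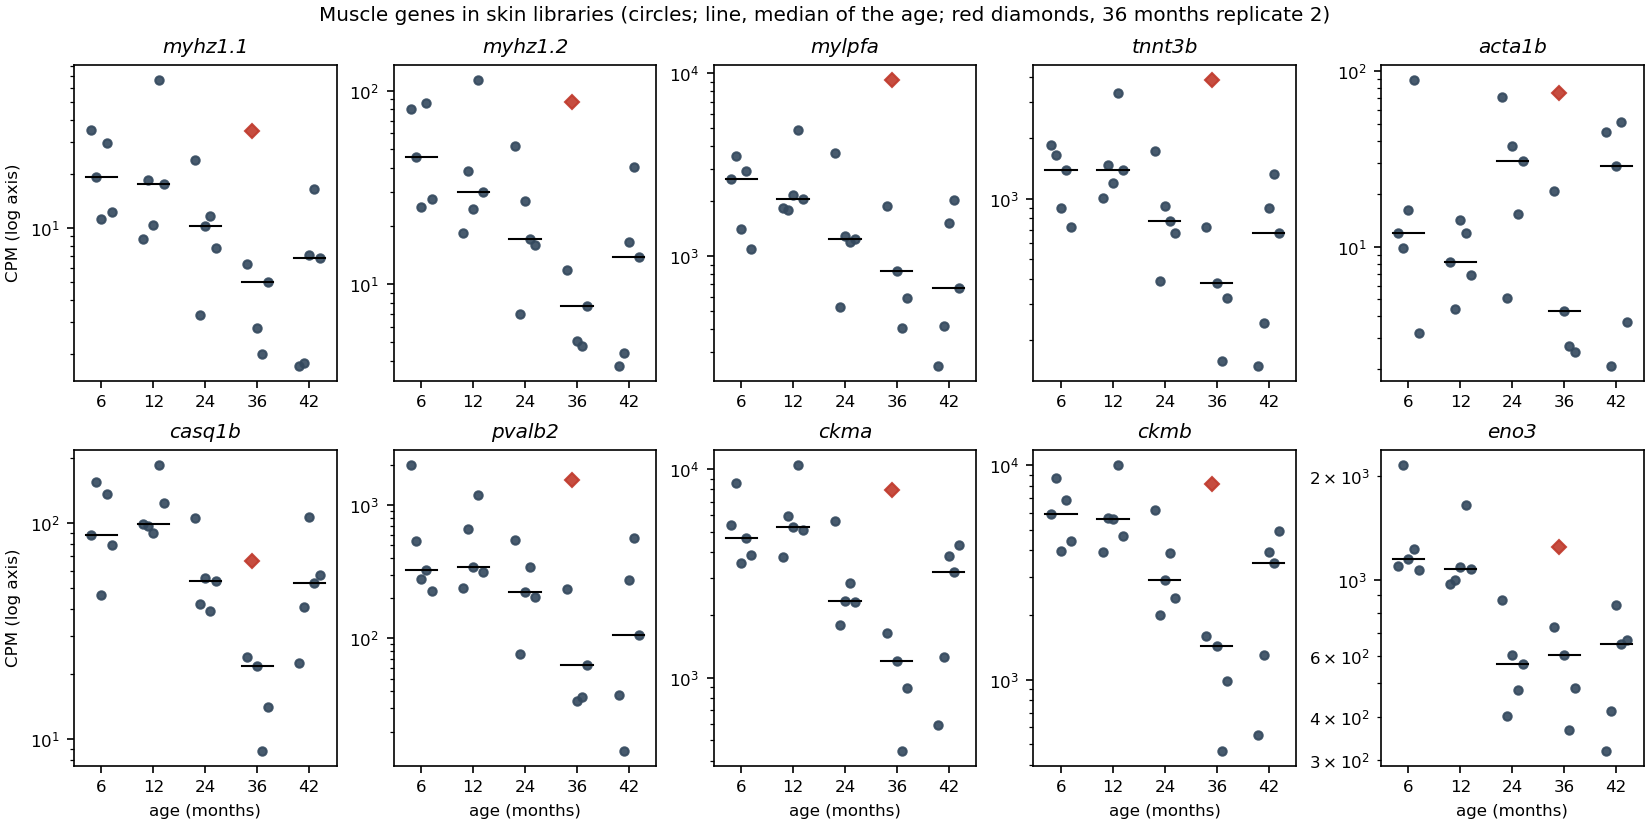
Level of each of the 10 muscle genes in each skin library (CPM on a log axis) against age in months, with the median of each age as a line and replicate 2 of 36 months as a red diamond. That library holds 9242 CPM of mylpfa and 7962 CPM of ckma, while the other 4 libraries of 36 months hold 405 to 1892 CPM of mylpfa and 442 to 1638 CPM of ckma.

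A single library decided how many genes were called in skin. Replicate 2 of 36 months held 32260.3 CPM of the 10 genes, against 1887 to 6883 CPM in the other 4 libraries of its age, and had the highest mylpfa (9242 CPM) and tnnt3b (3881 CPM) of all skin libraries. Without it, 8 of the 10 genes were called lower in old skin, where 8.89% of all genes were. Myhz1.1 then had a log2 fold change of -2.08, myhz1.2 of -2.33, ckmb of -1.77, ckma of -1.68, tnnt3b of -1.38 and pvalb2 of -2.34. Acta1b and mylpfa still did not pass. This library was noticed for its level of these very genes, so that the count without it is a description. Leaving out 1 other library of the old or youngest ages gave between 1 and 2 called genes. Limma voom on all libraries called 6. For limma voom and for leaving out other libraries no share of all genes is given, so that these counts alone say little of the 10 genes.

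Against 6 months, skin of 12 months had none of the 10 genes called in either direction by edgeR, and 0 at an unadjusted p under 0.05, where 4.31% of all genes were called lower. At 24 months, the comparison without a listed transgene on either side, eno3 alone fell (log2 fold change -1.19 ± 0.31, adjusted p = 0.00904), where 9.49% of all genes were called lower. It had 874, 403, 606, 478 and 569 CPM at 24 months, against 1064 to 2157 CPM at 6 months, and the groups did not overlap, as was the case for 6.01% of all genes in the lower direction. At 36 months eno3 (-0.96 ± 0.31, adjusted p = 0.0312) and casq1b (-1.90 ± 0.47, adjusted p = 0.00766) fell, where 7.90% of all genes were called lower. Without replicate 2 of 36 months 8 of the 10 genes did, a fit for which no share of all genes is given. That library was noticed for its level of these genes, so that this count is a description. At 42 months eno3 fell (-1.21 ± 0.31, adjusted p = 0.0195), where 3.44% of all genes were called lower, and again did not overlap with 6 months, as 2.74% of all genes did not in that direction. Set against 12 months in place of 6 months, old skin was lower in eno3 (-0.87 ± 0.25, adjusted p = 0.0151) and casq1b (-1.62 ± 0.38, adjusted p = 0.00379), where 12.6% of all genes were called lower. A test of any difference among the 5 ages called the same pair, eno3 (adjusted p = 0.00349) and casq1b (adjusted p = 0.00674), where 49.0% of all genes passed. These comparisons share libraries and are not independent.

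Other genes of skeletal muscle in skin were read from lists beside the set, whose counts stand against the same 7.32% of all genes. The most abundant genes are named for the energy metabolism and the fast fibre lists. For the other lists only called genes are named, and called genes of short counts were named after their values were seen. Of 21 genes of muscle energy metabolism 12 were called lower in old skin and none higher, with a median log2 fold change of -1.05. Gapdh, the most abundant, fell by 1.79 on the log2 scale (SE 0.39, adjusted p = 0.00462) and aldoaa, an aldolase, by 0.87 (SE 0.28, adjusted p = 0.0424), while pkma, a pyruvate kinase, had -0.07 (adjusted p = 0.756). Several of these, such as gapdh and tpi1b, are used by all cells and do not read muscle alone. Of 36 tested fast fibre contractile genes 2 were called lower, the troponin I tnni2b.2 and the muscle methyltransferase smyd1b, and none higher, with a median of -0.73. The most abundant of them was actc1b, an actin of muscle, with -0.36 (adjusted p = 0.742), then mylz3 with -0.57 (adjusted p = 0.552) and ttna with -0.96 (adjusted p = 0.192). Of 26 genes of calcium handling and excitation 3 were lower and 1 higher (median -0.85): the calcium pump atp2a1, the acetylcholine receptor subunit chrnd and the kinase musk of the neuromuscular junction fell, and the receptor subunit chrng rose. Of 13 slow fibre genes 1 was lower, the slow myosin smyhc1 (log2 fold change -1.73, adjusted p = 0.0259), with a median of -0.41. Of 16 tested myogenic regulators and satellite cell genes 2 were lower, myf6 and the myostatin mstnb (-1.34, adjusted p = 0.00857), with a median of -0.52. Without replicate 2 of 36 months 8.89% of all genes were called lower. The list counts were then 17 of 21 for energy metabolism, 21 of 36 for fast fibre genes and 18 of 26 for calcium handling. They were 2 of 13 for slow fibre genes and 4 of 16 for myogenic regulators. That library was noticed for its level of muscle genes, so that these counts are a description.

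Markers of other cell types were read in the same fit. Of 16 epithelium markers 3 were called higher in old skin, where 7.81% of all genes were, and none lower. But 9 of the 16 had a log2 fold change below 0, with a median of -0.11. Their summed level was 32738 to 63728 CPM in old skin, against 31491 to 48536 CPM at 6 months. The median of this sum was 58486 CPM at 36 months but 39194 CPM at 42 months, against 40017 CPM at 6 months. Of 9 smooth muscle genes 1 was lower and none higher, of 8 tested heart genes 1 was higher, and of 17 tested brain markers and 14 tested liver markers none was called by edgeR in either direction. The scale, bone and connective tissue list had 3 of 12 lower and 1 higher in old skin, but the old ages differed. It summed to 7315 to 16185 CPM at 36 months and to 3934 to 5100.4 CPM at 42 months, against 7419 to 10277 CPM at 6 months. At 42 months 6 of the 12 genes were called lower and 1 higher (median -0.81), beside 3.44% of all genes lower, and at 36 months none was called lower by edgeR and 2 were called higher (median 0.32). At 42 months this sum was thus below that of 6 months in all libraries, as eno3 was. Over the 25 skin libraries the 9 muscle genes without eno3 had a Pearson r of -0.57 with the epithelium sum, of -0.02 with the sum of scale, bone and connective tissue, of 0.67 with that of the brain markers, which include genes of myelin, and of -0.17 with that of the liver markers, as a description. All these sums share 1 total per library, and the part of the tissue mix in the result was not tested.

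**Figure D3:**
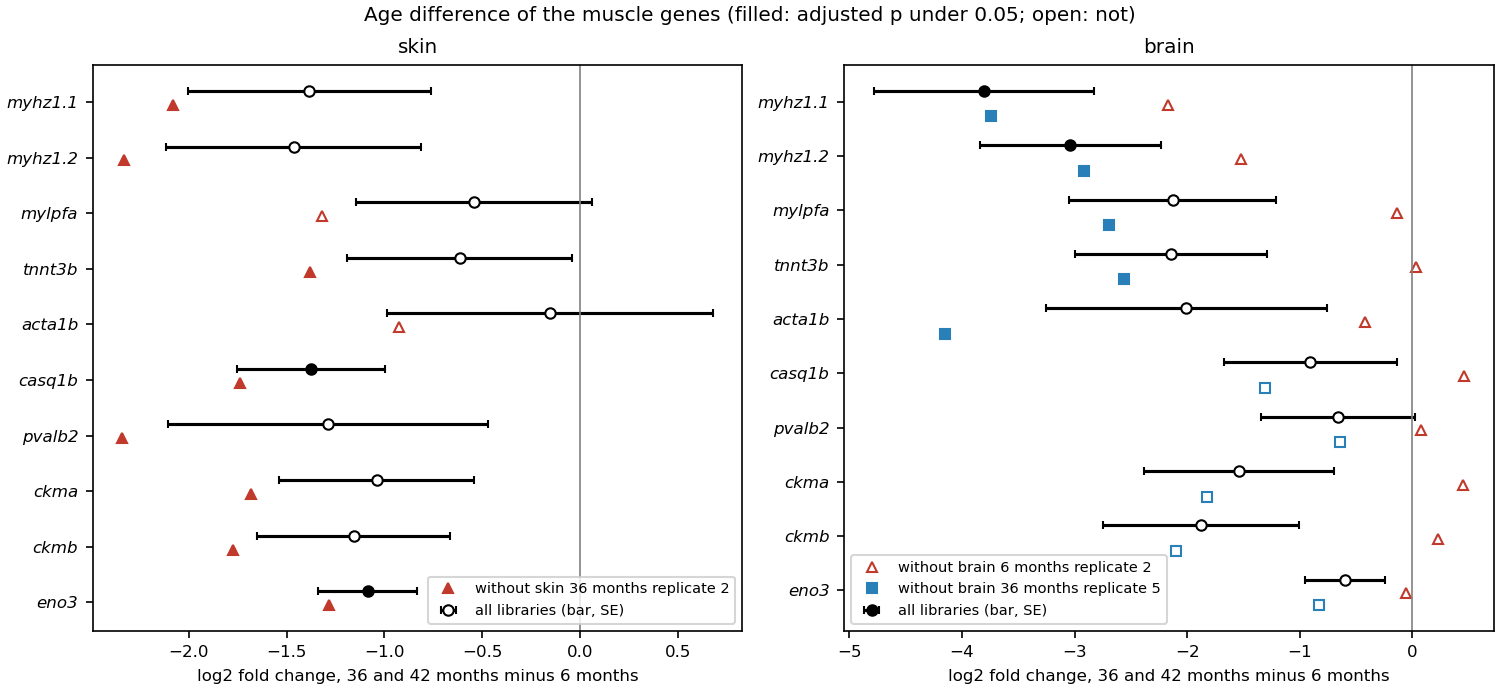
Log2 fold change between old fish (36 and 42 months) and 6 months for each of the 10 muscle genes in skin and brain, with all libraries (circles, bars are the SE) and without single libraries (triangles and squares). In skin all 10 values move further below 0 without replicate 2 of 36 months, and in brain 5 of 10 values lie above 0 without replicate 2 of 6 months.

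In brain, 2 of the 10 genes were lower in old fish than at 6 months, myhz1.1 and myhz1.2, in a comparison in which 10.6% of 23028 genes were called lower, and none was called higher. Myhz1.1 had in old brain 0.583, 0.708, 0.981, 1.77 and 0.684 CPM at 36 months and 0.694, 0.631, 2.89, 0.842 and 0.556 CPM at 42 months, against 12.8, 53.1, 2.17, 0.458 and 3.33 CPM at 6 months. All groups overlapped, since the lowest library of the 15 was one of 6 months. The log2 fold change was -3.81 ± 0.98 for myhz1.1 (adjusted p = 0.00914) and -3.04 ± 0.81 for myhz1.2 (adjusted p = 0.011). Myhz1.2 had 0.171 to 0.864 CPM in old brain, against 3.20, 12.2, 0.793, 0.196 and 0.672 CPM at 6 months. At the lowest levels these are few reads, as myhz1.2 had a median of 13 counts per brain library and myhz1.1 of 28.

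The other 8 genes also had a fold change below 0 but did not pass. The log2 fold change was -2.14 ± 0.85 for tnnt3b (adjusted p = 0.08), -2.13 ± 0.92 for mylpfa (adjusted p = 0.105), -1.88 ± 0.87 for ckmb (adjusted p = 0.136), -1.54 ± 0.84 for ckma (adjusted p = 0.21) and -2.01 ± 1.25 for acta1b (adjusted p = 0.275). Ckmb had in old brain 12.4, 14.2, 84.8, 10.99 and 89.0 CPM at 36 months and 29.02, 14.4, 7.28, 9.58 and 2.005 CPM at 42 months, against 34.8, 341, 18.3, 7.62 and 18.7 CPM at 6 months. A single pool of 6 months thus stood far above all the other libraries of these ages. Casq1b (-0.91 ± 0.77), pvalb2 (-0.66 ± 0.68) and eno3 (-0.60 ± 0.35) had the smallest differences (adjusted p = 0.436, 0.531 and 0.245).

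The calls in brain rested on that pool. Replicate 2 of 6 months held 1114 CPM of the 10 genes, against 50.1 to 177 CPM in the other 4 pools. Limma voom called none of the 10 genes on all libraries. Without the pool none was called by edgeR, 8.24% of all genes were called lower, and 5 of 10 fold changes lay above 0. Myhz1.1 then had -2.17 (adjusted p = 0.121), myhz1.2 -1.53 (adjusted p = 0.193), ckmb 0.23 and tnnt3b 0.03. Without replicate 5 of 36 months, a library with 416 CPM of the 10 genes, 5 genes were called lower, namely myhz1.1, myhz1.2, mylpfa, acta1b and tnnt3b, where 10.2% of all genes were. The brain markers summed to 20724 CPM in the library of 36 months and 25381 CPM in the pool, both within the brain range of 13609 to 26288 CPM. The 10 genes took 0.0418% of all counts in that library and 0.111% in the pool. A small share of other tissue would not show in the brain marker sum, given that range.

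**Figure D4:**
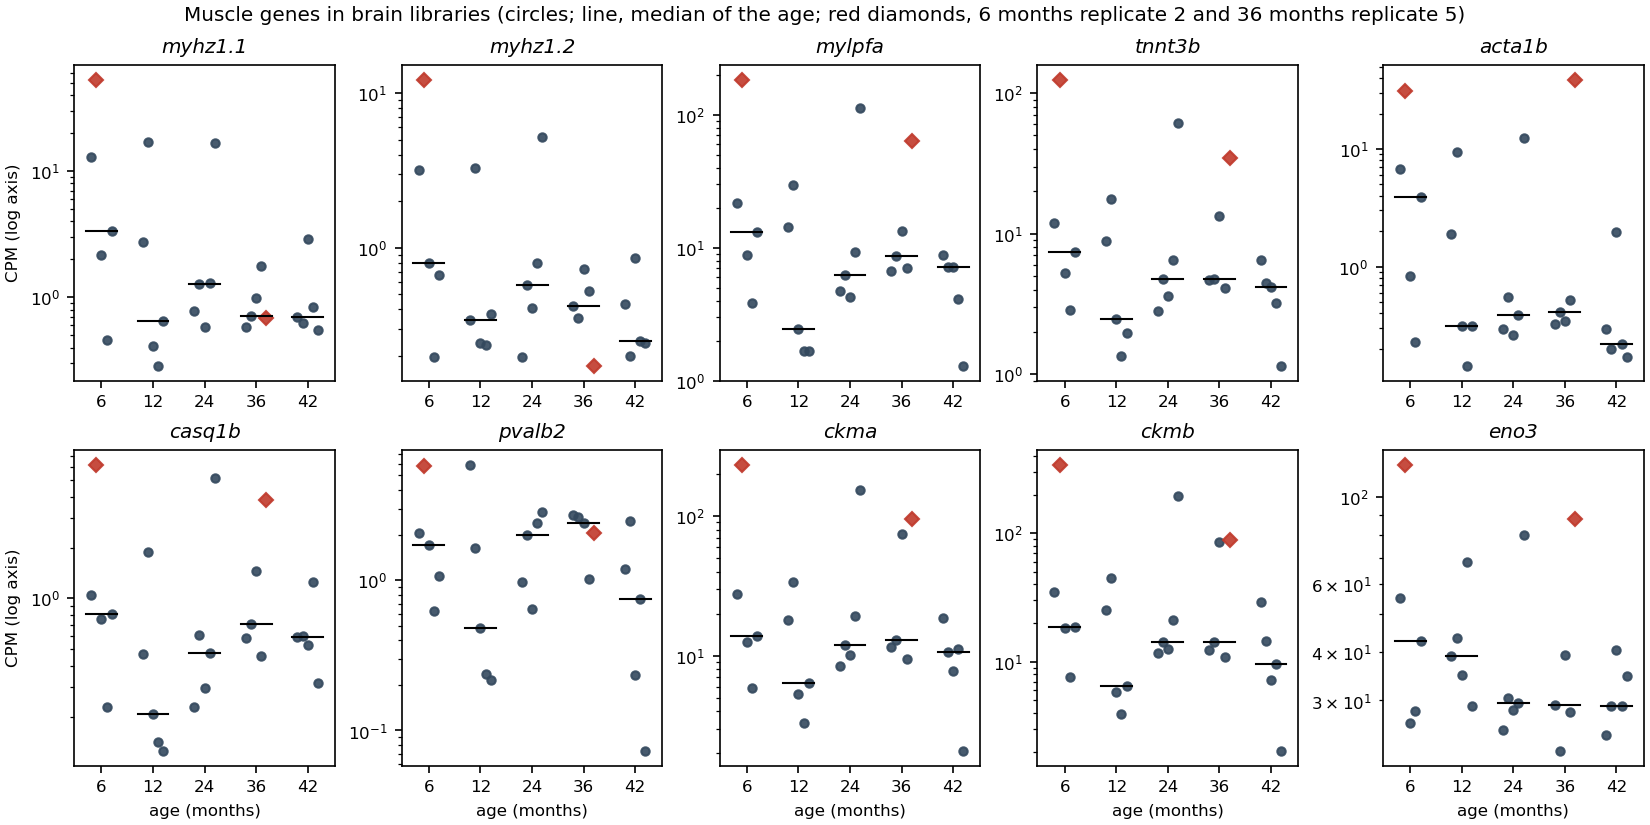
Level of each of the 10 muscle genes in each brain library (CPM on a log axis) against age in months, with the median of each age as a line and replicate 2 of 6 months and replicate 5 of 36 months as red diamonds. The pool of 6 months is the highest of all brain libraries in ckma (233 CPM) and ckmb (341 CPM), and the library of 36 months is the highest in acta1b (38.9 CPM) but the lowest in myhz1.2 (0.171 CPM). Ranks of myhz1.2 rest on few reads, with a median of 13 counts per brain library.

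Against 6 months, no gene of the set was called in brain of 12 months (9.74% of all genes lower), of 24 months (7.06%) or of 42 months (4.20%) by edgeR, while 2, 0 and 7 of the 10 genes had an unadjusted p under 0.05. No share of all genes at the unadjusted threshold is given. These comparisons also share the pool of 6 months on which the calls in brain rested. At 36 months myhz1.1 (-3.93 ± 1.28, adjusted p = 0.0256) and myhz1.2 (-2.96 ± 1.03, adjusted p = 0.0337) were lower, where 15.1% of all genes were, and neither was without replicate 2 of 6 months. Set against single fish of 12 months, old brain had none of the 10 genes called by edgeR and 1 at an unadjusted p under 0.05, where 6.35% of all genes were called lower, and 5 of 10 fold changes lay below 0. Any difference among the 5 ages was called for myhz1.1 (adjusted p = 0.0357) and myhz1.2 (adjusted p = 0.0389), where 50.1% of all genes passed, and for neither without that pool.

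High levels came in single brain libraries of several ages. Besides the pool of 6 months, replicate 5 of 24 months held 643 CPM of the 10 genes, against 55.3 to 91.3 CPM in the other 4 of its age, and was the highest of its age in all 10 genes. Replicates 5 and 3 of 36 months held 416 and 231 CPM, against 63.7 to 69.1 CPM in the other 3, and replicate 2 of 12 months held 203 CPM, against 47.1 to 116.998 CPM. The mix differed among them. Replicate 3 of 36 months had 74.5 CPM of ckma and 84.8 CPM of ckmb but 0.348 CPM of acta1b and 0.981 CPM of myhz1.1, whereas replicate 2 of 12 months had 33.9 CPM of ckma and 45.1 CPM of ckmb with 9.35 CPM of acta1b and 17.1 CPM of myhz1.1. Genes of scale, bone and connective tissue summed to 810.4 CPM in replicate 2 of 6 months, against a brain median of 203 CPM, but the highest sum, 1135 CPM, was in replicate 5 of 6 months, which had only 105.7 CPM of the muscle genes. In brain of old fish 6 of 12 genes of that list were called lower than at 6 months, where 10.6% of all genes were, among them col1a1a (-2.59 ± 0.63, adjusted p = 0.00667) and col1a1b (-2.80 ± 0.63, adjusted p = 0.00379), which encode type I collagen. Without replicate 2 of 6 months 5 of the 12 were, beside 8.24% of all genes. The part of other tissues in these libraries was not tested.

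The wider muscle lists had few calls in brain, against the same 10.6% of all genes, or 8.24% without replicate 2 of 6 months. Of 35 fast fibre contractile genes 4 were called lower in old brain and none higher (median -0.84), and 1 without replicate 2 of 6 months. The most abundant were tnni2a.2, a fast troponin I, with -0.25 (adjusted p = 0.0512), actc1b with -1.42 (adjusted p = 0.188) and actn3b with -0.58 (adjusted p = 0.395). Of 23 calcium handling genes 2 were lower, casq1a and cacnb1, and of 20 energy genes 1 was lower, phkg1a, and 1 higher, phkg1b. Of 12 slow fibre genes none was called by edgeR in either direction. Of 15 myogenic regulators 3 were lower, pax7a (-0.45, adjusted p = 0.0344), six1a (-1.38, adjusted p = 0.00745) and six1b (-2.98, adjusted p = 0.0111), and 3 were lower without replicate 2 of 6 months. These are transcription factors that neurons and sensory tissues of the head use as well. Of 8 tested heart genes 1 was higher in old brain, vmhcl (3.37 ± 1.17, adjusted p = 0.0471), and none was without replicate 5 of 36 months. Of 9 smooth muscle genes 1 was higher, of 18 brain markers 6 were lower, and of 16 skin epithelium and 15 liver markers none was called by edgeR.

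Whether the difference with age differed between skin and brain was tested by itself. The interaction (old minus 6 months in skin, minus the same in brain) called none of the 10 genes in edgeR, where 0.931% of all genes were called, and 1 gene had an unadjusted p under 0.05. Its values lay between -0.62 (SE 1.11) for pvalb2 and 2.43 (SE 1.08) for myhz1.1, which leaves room for differences of several-fold in either direction. Set against liver, the interaction likewise called none, where 2.93% of all genes were called, and none had an unadjusted p under 0.05. For myhz1.1 and myhz1.2 that comparison says nothing, since both failed the filter in liver and entered the joint fit through the other tissues. In fits by limma voom, with or without fish as a block, none of the 10 genes was called in either interaction.

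For 15 fish the labels name both a skin and a brain library, 2 of them with the brain in a pool. The summed level of the 10 genes in skin was not shown to go with that in brain, with a Pearson r of -0.48 (permutation test, 2-sided, p = 0.0901) and a Spearman rho of -0.34 (p = 0.219) over these fish. Without the 2 fish farthest from the median r was -0.20 (permutation p = 0.504). Taken as deviations from the mean of each age, r was -0.42 (permutation p = 0.1) and rho was -0.33 (permutation p = 0.235). Adjusted over these 2 relations, p was 0.1 for either r and 0.235 for either rho. The deviations were shuffled over all ages rather than within each age, so that their permutation p is approximate. The fish with the highest skin level, at 32260.3 CPM, had 67.6 CPM in brain, and the fish with the lowest, at 1887 CPM, had 416 CPM. No age held 6 such fish, so that the relation could not be tested within an age. The relation was tested only with eno3 in the sum. In brain this sum lay between 42.5 and 1114 CPM with eno3 and between 7.83 and 992 CPM without it.

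In liver no member was called lower or higher in old fish by edgeR, where 0.152% of 21045 genes were called lower, and 0 of the 8 tested had an unadjusted p under 0.05. DESeq2 and limma voom called 0 as well, and edgeR called no gene of the 11 other lists in old liver. Any difference among the ages was called for acta1b (adjusted p = 0.0223), where 7.28% of all genes passed, and this rested on replicate 1 of 24 months, without which none of the 8 was called. That library held 1306 CPM of acta1b, 558 CPM of ckma and 16.9 CPM of casq1b, against 0.242 to 0.927 CPM, 1.02 to 7.02 CPM and 0.0125 to 0.130 CPM in the other 4 of its age. But it had only 5.12 CPM of mylpfa, 12.2 CPM of ckmb and 0.0687 CPM of myhz1.1, so that acta1b, ckma and casq1b stood far above the other livers of its age while mylpfa, ckmb and myhz1.1 did not.

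The same library was rich in genes of heart muscle. The 10 genes of the heart list summed to 18603 CPM in it, against at most 227 CPM in any other liver library. Vmhcl, a ventricular myosin heavy chain, had 7104 CPM against a liver median of 0.172 CPM, myl7, a cardiac light chain, 2850.1 CPM, and nppa, the atrial natriuretic peptide, 864 CPM. Liver markers summed to 5842 CPM there, the lowest of the 23 libraries. A further 2 libraries stood out for the same genes. Replicate 5 of 36 months in brain had 572 CPM of the heart list against a brain median of 7.09 CPM, and replicate 1 of 42 months in skin had 619 CPM against a skin median of 39.6 CPM.

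Acta1b was compared with the heart genes in both libraries. Taken as shares of all counts, 9 heart genes were in the brain library at 1.82% to 2.48% of their level in the liver library (median 1.93%), and acta1b was at 1.85%. In the skin library the 9 genes were at 2.25% to 2.92% (median 2.38%) and acta1b was at 2.50%. With the median of the other libraries of the tissue first taken off, the brain values were 1.81% to 2.24% for the heart genes and 1.83% for acta1b, but in skin they were 2.07% to 2.43% for the heart genes and 1.94% for acta1b, below all 9. Over all skin libraries acta1b had 2.08 to 89.5 CPM, so that in skin the likeness depends on this step. Without this step the other 9 muscle genes were further off, with ckma at 10.7% in the brain library and 76.4% in the skin library and ckmb at 453% and 3269%. The tissue's own level enters this ratio. For ckmb the other libraries had a median of 4171 CPM in skin and 13.9 CPM in brain, against 19.7 CPM in the liver library. In skin the contrast with these 9 genes therefore says nothing of acta1b. Bmp10, the tenth heart gene, was under 1 CPM in all brain and skin libraries and was left out, a choice made after its values were seen. The 3 libraries came from different fish, at 3 ages. The skin library had 45.1 CPM of acta1b with 249 CPM of mylpfa, the lowest mylpfa of all skin libraries. The brain library had 38.9 CPM of acta1b and was high in mylpfa, at 63.2 CPM, and tnnt3b, at 34.3 CPM, too, but had the lowest myhz1.2 of all brain libraries. That last rank rests on few reads, as myhz1.2 had a median of 13 counts per brain library. Other skin libraries were high in acta1b without such a sum of heart genes, which was 74.6 CPM in the library of 6 months with 89.5 CPM of acta1b and 38.4 CPM in the library of 36 months with 75.0 CPM. The source of the heart gene RNA in these 3 libraries was not tested.

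**Figure D5:**
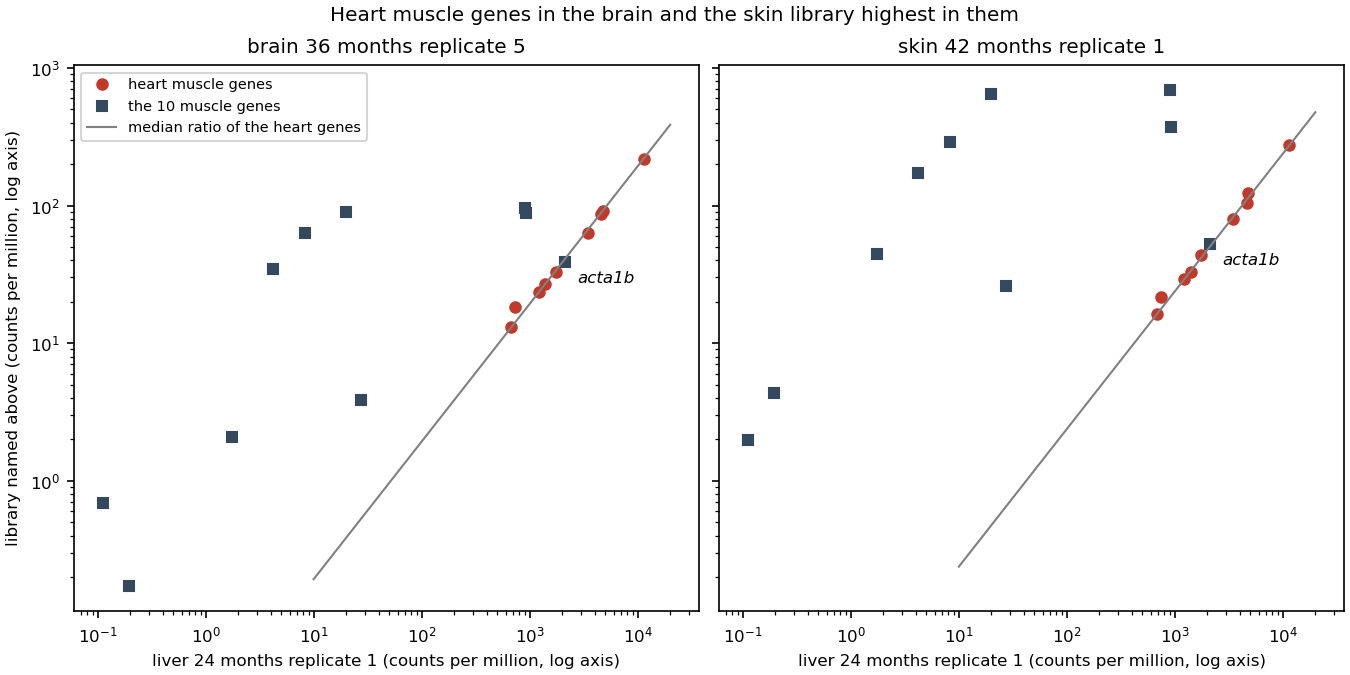
Level of 9 heart muscle genes (circles) and the 10 muscle genes (squares) in the brain library of 36 months and the skin library of 42 months that are highest in heart genes, against replicate 1 of 24 months in liver, all as shares of all counts (CPM without TMM factors) on log axes. No level of the tissue's own is taken off here. The line marks the median ratio of the heart genes, 1.93% in brain and 2.38% in skin, with acta1b at 1.85% and 2.50%, and the other muscle genes lie above it.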

How the data were processed

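Total RNA of brain, liver and skin was sequenced on the Illumina platform with an unstranded kit. The authors aligned reads with TopHat2 2.0.6, after CASAVA 1.8.0, to the zebrafish genome Zv9 and deposited counts per gene, which they also turned into RPKM. Counts were analysed here with edgeR 4.0.16 in R 4.3.3 (filter by expression, TMM, robust quasi-likelihood test, Benjamini-Hochberg adjustment over all genes tested, threshold 0.05), with age as a factor of 5 levels within a tissue and 15 groups in the joint fit of 73 libraries. Fold changes are on the log2 scale. Likeness was read on log2(CPM + 1), and the deposited RPKM served to set genes side by side. Permutation tests drew 100000 resamples. The tests were checked on simulated data. All 10 members were named, with the 8 genes most like the set. Named genes of the 11 further lists were mostly the most abundant of a list or called genes, the latter picked after their values were seen. Some lists were represented by called genes alone or by no named gene. Members and lists were chosen with earlier results of these data known. Nothing in the labels says that libraries of a group came from separate tanks, so p-values measure the spread between these fish. The 2 libraries whose labels conflict were put in no group. Alternatives covered other size factors (RLE, in edgeR), the Wald test of DESeq2 1.42.0 and limma 3.58.1 voom. They included the filter on low values, other sets of ages and the fish as a block. They also covered leaving out each library of the old and youngest ages in turn. Of the other ages, only the liver library rich in heart genes was left out. The effect of leaving out the remaining libraries was not tested. Some alternatives were chosen after seeing the data.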

Additional observations from a re-analysis of the deposited data

Results flagged for a closer look

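Of 165 sets of 4 or 5 libraries, each for 1 gene or the sum in 1 tissue at 1 age, 27 held a library far from the others (16.4%, where chance gives about 1 in 20, and the genes are not independent of each other). Replicate 5 of 24 months in brain accounted for the largest share, with 16.7 CPM of myhz1.1, 5.17 CPM of myhz1.2, 112.6 CPM of mylpfa, 153 CPM of ckma, 193 CPM of ckmb, 79.8 CPM of eno3, 5.17 CPM of casq1b, 12.3 CPM of acta1b, 61.2 CPM of tnnt3b and a sum of 643 CPM. In brain of 42 months, replicate 3 stood out with 2.89 CPM of myhz1.1 and 1.96 CPM of acta1b. In brain of 12 months, replicate 2 did so with 3.30 CPM of myhz1.2 and 1.88 CPM of casq1b. Single values were 6.19 CPM of casq1b in replicate 2 of 6 months and 38.9 CPM of acta1b in replicate 5 of 36 months in brain.

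In skin, replicate 4 of 12 months was high in mylpfa (4896 CPM) and eno3 (1648 CPM), and replicate 2 of 6 months in eno3 (2157 CPM). In liver, replicate 3 of 42 months had 50.2 CPM of mylpfa, 8.94 CPM of ckma, 7.92 CPM of acta1b and 9.42 CPM of tnnt3b. Replicate 1 of 24 months in liver had 558 CPM of ckma, 16.9 CPM of casq1b and 1306 CPM of acta1b, and replicate 4 of 36 months had 0.873 CPM of casq1b.

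The labels of 2 libraries conflict between skin and liver, and neither was used in any comparison. Both list Tg(wt1a:GFP), at 12 months in the first and at 6 months in the second, unlike the groups of these ages. The first held 560.0 CPM (of all counts, without TMM factors) of the 10 genes, of which eno3 was 537, and the second held 1446, of which eno3 was 1419. The liver markers summed to 35749 and 103217 and the skin epithelium markers to 162 and 227 CPM in the first and second library.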

How the results depend on the processing

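Of 212 recomputed counts and summaries 199 stayed the same, which for a count meant within 1.5 times of the value given. For a median r it meant a shift below the SD over the members. Counts that stayed at 0, such as those of genes called higher in old fish, are among the 199, so that this share says little of the counts above 0. The count of genes called lower in old skin, 2, was 6 with limma voom and 1 with 6, 36 and 42 months alone. It lay between 1 and 8 when single libraries of these ages were left out. No share of all genes is given for limma voom or the fit of these ages alone. At 36 months in skin it was 8, and mylpfa turned to -1.38, without replicate 2 of that age, a library noticed for these genes. In old brain the count, 2, was 0 with limma voom. It lay between 0 and 5 when single libraries of the old or youngest ages were left out. Without replicate 2 of 6 months it was 0 at 36 months and for any age, and the log2 fold change in old brain was 0.45 for ckma, 0.23 for ckmb, 0.46 for casq1b, 0.0315 for tnnt3b and 0.0774 for pvalb2, the highest when single libraries were left out, where the lowest were -1.83, -2.16, -1.31, -2.56 and -1.03 in the same order of genes. The count for any age in liver was 0 without replicate 1 of 24 months. The median r with the sum in liver, -0.27, was -0.0067 with RPKM.

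Directions that turned were of genes that had not passed the test. Acta1b in old skin was 0.33 with a straight line over age, and lay between -0.93 and 1.17 when single libraries were left out. In old liver, limma voom gave 0.42 for ckma, 0.25 for ckmb, 0.00964 for casq1b and 1.14 for pvalb2. With single libraries left out in liver, acta1b lay between -1.78 and 2.17, mylpfa between -3.15 and 0.0456, ckma between -1.46 and 0.71, ckmb between -1.12 and 0.48, casq1b between -1.54 and 0.62, tnnt3b between -1.99 and 0.00955, pvalb2 between -0.48 and 2.06 and eno3 between -0.35 and 0.14. At 24 months in liver without replicate 1, ckma was -1.35, casq1b -2.88, acta1b -1.62 and pvalb2 -0.14. The cause of these changes was not tested.

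Some fish gave libraries of more than 1 tissue, and limma voom was run with and without the fish as a replicate block (40 blocks, 23 with more than 1 library, consensus correlation 0.125). The block changed no call in the joint fit. For the interaction of skin minus brain, voom without and with the block gave -0.23 and -0.23 for myhz1.2, -0.79 and -0.78 for ckma, -0.60 and -0.62 for ckmb and -0.14 and -0.13 for tnnt3b, against positive values in edgeR. For skin minus liver it gave -0.27 and -0.28 for mylpfa, -1.92 and -1.92 for ckma and -0.83 and -0.81 for tnnt3b. In brain, few reads limit myhz1.1, myhz1.2, casq1b and acta1b.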
